A study of Parasteatoda tepidariorum with 12 samples.

Results

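In early development of the house spider *Parasteatoda tepidariorum*, transcripts of 5 gene models of metabolic enzymes are described here: aug3.g11342 (urease accessory protein UreG), aug3.g25447 (kynurenine formamidase-like), aug3.g15364 (sorbitol dehydrogenase-like), and aug3.g27732 and aug3.g27733 (acetoacetyl-CoA synthetase-like, both assigned to 1 NCBI gene). They are 5 of the 27990 gene models counted, and were chosen from earlier results of these same libraries because their counts were lower after knockdown of *fuchi nashi* (*fuchi*, aug3.g26874). The counts that chose them are therefore given as a description with no test, at stage 3 and at early stage 5, since the choice named no stage. In the text the prefix aug3 is left out.

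Embryos of the Osaka isolate were collected 11 h (stage 2), 20 h (stage 3) or 31 h (early stage 5) after the eggs were laid, and poly(A) RNA of pooled whole embryos was sequenced. In *fuchi* parental RNA interference (pRNAi), double-stranded RNA of *fuchi*, which encodes a GATA-like transcription factor, was injected into mated females, and the eggs laid 18 or 19 days after the first injection were taken. The untreated eggs came from the same 2 females before any injection, so that each of the 6 groups had 2 libraries, 1 from each female. No eggs of females injected with a control double-stranded RNA are among the libraries, so treatment, injection and the time at which a female laid her eggs cannot be told apart. Totals of the 12 libraries lay between 5662766 and 8857990 counts. Scaled to library size (CPM), a floor of 3 counts lay between 0.339 and 0.530, and floors and intervals cover counting error only.

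The 5 models stand for 4 enzymes or enzyme helpers of nitrogen, amino acid, sugar and acetoacetate metabolism. UreG is a GTPase that helps to load nickel into urease, the enzyme that splits urea into ammonia and carbon dioxide, as worked out in bacteria and plants. Kynurenine formamidase releases kynurenine from N-formylkynurenine in the breakdown of tryptophan. Sorbitol dehydrogenase oxidises sorbitol to fructose, the step that follows aldose reductase in the polyol pathway. Acetoacetyl-CoA synthetase activates acetoacetate in the cytosol to acetoacetyl-CoA, a precursor of sterols and fatty acids in mammals. No sequences of these models were given with the data, and none are shown.

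In untreated embryos of early stage 5 all 5 models were well covered, at 213 to 773 counts per library, whereas the *fuchi* pRNAi libraries of that stage held 0 to 2 counts of each. At stage 2 none of the 5 had more than 13 counts in any library. The pRNAi libraries held 0 to 4 counts of each model at all 3 stages, and the summed counts of the untreated libraries were higher at each later stage, with g11342 already higher in both untreated libraries at stage 2.

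**Figure D1:**
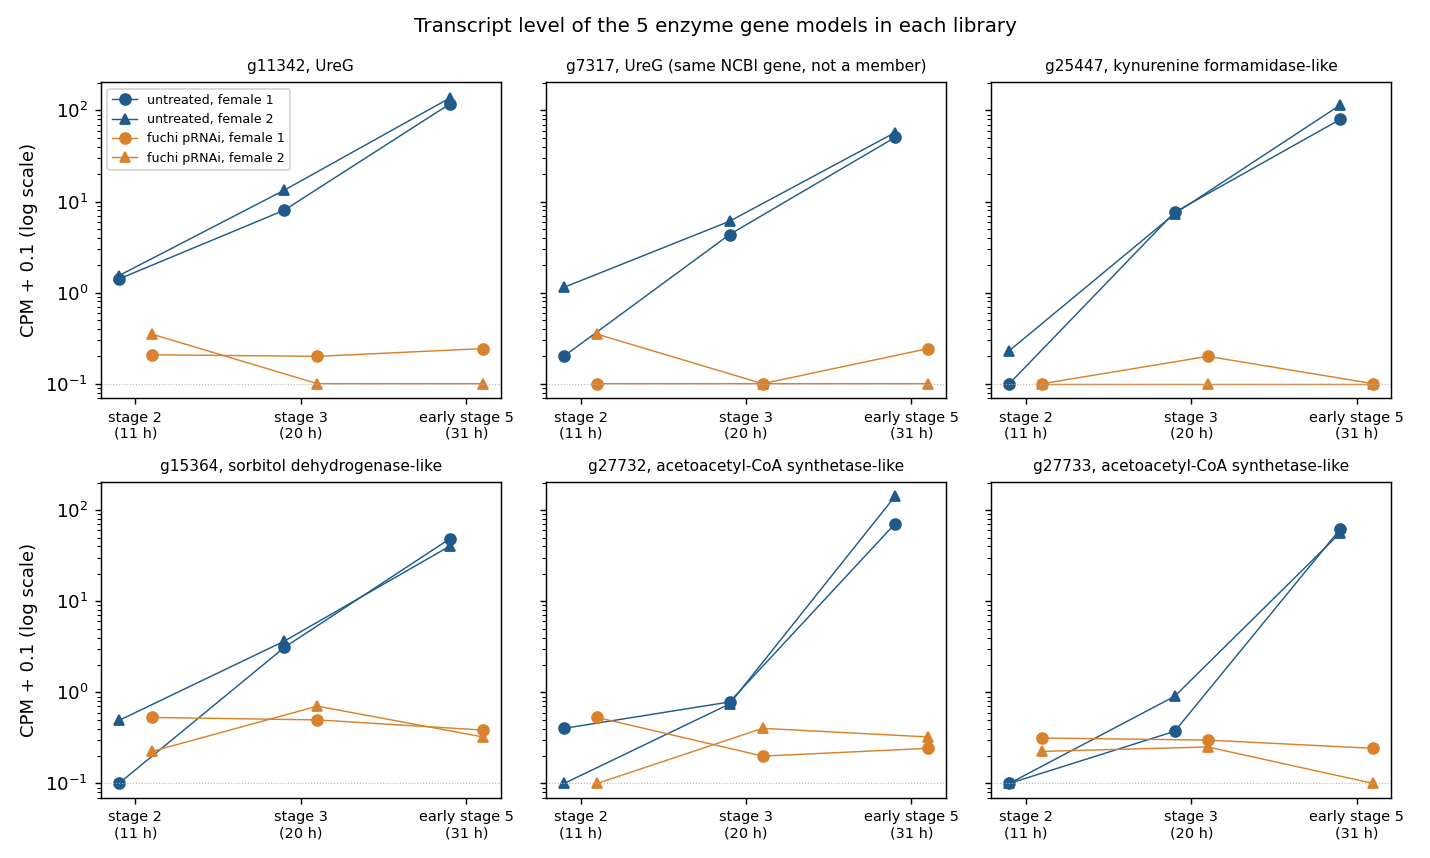
Level of each of the 5 gene models, and of g7317, the other model of the UreG gene, in all 12 libraries, in CPM plus 0.1 on a log axis against stage; circles are female 1 and triangles female 2, and a symbol on the dotted line is a count of 0. In all 6 panels the untreated libraries of early stage 5 lie far from the pRNAi libraries of the same stage, and at stage 2 only g11342 has both untreated libraries higher than both pRNAi libraries among the 5.

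For UreG, g11342 had 13 and 11 counts in the untreated libraries of stage 2 (female 1, then female 2) and 1 and 2 in the *fuchi* pRNAi libraries. At stage 3 the counts were 58 and 82 against 1 and 0, and at early stage 5 they were 773 and 724 against 1 and 0. The groups did not overlap at any of the 3 stages, and the pRNAi libraries were at or under the floor in all of them. Scaled to library size, the untreated level was 171 times that of pRNAi at stage 3 (95% counting interval 30.2 to 6797) and 1523 times at early stage 5 (273 to 60209). Stage 2 is the only contrast for which a test of the 5 models is given, and since the choice named no stage it is not known to be free of that choice. The log2 fold change of g11342 (*fuchi* pRNAi minus untreated) at stage 2 was -2.88 ± 1.05 (SE), and the untreated level was 7.96 times that of pRNAi (2.42 to 41.3). By the quasi-likelihood test of edgeR its adjusted p was 0.983 over 12079 gene models (0.159 with the female as a block). The stage 2 difference thus did not pass the threshold of 0.01. Its unadjusted p was 0.0274, with the same direction in both females. However, g11342 passed the filter on low counts (at least 1 CPM in at least 1 library) only through the untreated libraries. No conclusion is drawn from this p-value and direction.

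The NCBI gene of g11342, LOC107436131, is also assigned to g7317, and these are the only 2 models described as UreG. In the Ptep_1.0 assembly g11342 occupies scaffold 1298 from 418386 to 430692 (plus strand), where it is the last of 10 gene models. The model g7317 lies on scaffold 24 (154 to 9977, plus strand), where it is the first of 41. Both are counted as separate genes in the deposited table, and g7317 had 331 and 302 counts in the untreated libraries of early stage 5 against 1 and 0 in the pRNAi libraries. At stage 3 g7317 had 31 and 37 counts against 0 and 0, and at stage 2 it had 1 and 8 against 0 and 2. Of the counts of both models in untreated early stage 5 embryos, g11342 took 70.0% in female 1 (exact 95% interval 67.2 to 72.7) and 70.6% in female 2 (67.7 to 73.3), so the split was nearly the same in the 2 females. The gene next to g11342 on its scaffold, g11341 (gustavus-like), had 1772 and 1285 counts against 1822 and 1097 at early stage 5, a log2 fold change of -0.09 ± 0.22 (SE).

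Kynurenine formamidase-like g25447 was at or near 0 at stage 2, with 0 and 1 counts in untreated and 0 and 0 in pRNAi libraries. At stage 3 it had 55 and 45 counts against 1 and 0, and at early stage 5 it had 523 and 606 against 0 and 0. It was thus the only one of the 5 models with 0 counts in both pRNAi libraries of early stage 5. The untreated level was 122 times that of pRNAi at stage 3 (95% counting interval 21.4 to 4868). At early stage 5 it was at least 383-fold higher, taken against a floor of 3 counts over the pRNAi group. The model lies on scaffold 104 (1200848 to 1209110, minus strand). Its neighbour g25446 is described as the same enzyme and had at most 2 counts in a library.

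A total of 12 gene models of 12 NCBI genes are described as kynurenine formamidase. Of these, 5 had no count in any library and 8 had no library over 10 counts. Per length, as RPKM, counts scaled to length and library size, g25447 made up 87.9% and 89.3% of the summed level of these models in untreated embryos of early stage 5 (44.0 of 50.1 and 69.4 of 77.6). The next in order was g21623, with 35 and 48 counts in untreated and 0 and 0 in pRNAi libraries of early stage 5, which is at least 28.2-fold higher in untreated (adjusted p = 0.00338). A formamidase model that did not pass the test at that stage was g4045, which had 16 and 3 counts in untreated and 13 and 1 in pRNAi libraries.

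Sorbitol dehydrogenase-like g15364 had 0 and 3 counts in untreated and 4 and 1 in pRNAi libraries of stage 2, where the groups overlapped. At stage 3 the counts were 22 and 22 against 4 and 4, a level 6.71 times as high in untreated (95% counting interval 3.13 to 16.5). At early stage 5 they were 318 and 213 against 2 and 1, a level 180 times as high (61.3 to 876). The pRNAi libraries had a few counts of g15364 at every stage, and at early stage 5 fewer than at stage 3. The model spans 1194287 to 1234825 on scaffold 39 (minus strand), and an undescribed model of the same strand, g15365, overlaps it. That model had 34 and 40 counts in untreated and 0 and 0 in pRNAi libraries of early stage 5, and g15364 took 90.3% and 84.2% of the counts of the pair. Reads that fall in the overlap cannot be assigned from a table of counts.

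Among 6 gene models described as sorbitol dehydrogenase, g15364 made up 34.4% and 36.3% of the summed RPKM in untreated embryos of early stage 5. The level was thus shared with other models, unlike that of kynurenine formamidase. The model g22055 had 132 and 77 counts in untreated and 8 and 1 in pRNAi libraries (log2 fold change -4.56 ± 0.55 SE, adjusted p = 0.00145). The model g374 had 71 and 50 against 5 and 0 (-4.61 ± 0.74 SE, adjusted p = 0.00700). A further model, g24621, had 17 and 13 against 0 and 0, with an adjusted p of 0.0339, or 0.000491 with the female as a block. The 4 models that passed the filter did so only through untreated libraries, and g15364 was itself chosen for low pRNAi counts. That all 4 were lower in the pRNAi libraries of both females was thus partly fixed beforehand. The summed RPKM was 68.1 and 58.8 in untreated against 2.64 and 0.662 in pRNAi libraries.

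The acetoacetyl-CoA synthetase-like models g27732 and g27733 lie next to each other on the plus strand of scaffold 232, from 696282 to 722691 and from 723642 to 729929, with 950 bases between them. At stage 2 g27732 had 3 and 0 counts in untreated and 4 and 0 in pRNAi libraries, and g27733 had 0 and 0 against 2 and 1. At stage 3 g27732 had 5 and 4 counts against 1 and 2. The same stage gave g27733 2 and 5 counts against 2 and 1, where the groups overlapped. Both intervals of the ratio at stage 3 included 1 (3.66, 0.914 to 21.0, for g27732 and 2.85, 0.650 to 17.1, for g27733), so that no difference could be seen at this depth. At early stage 5 g27732 had 465 and 750 counts against 1 and 1, and g27733 had 406 and 298 against 1 and 0. The untreated level was 618 times that of pRNAi for g27732 (171 to 5110) and 716 times for g27733 (128 to 28336).

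The females divided the counts of this gene differently between its 2 models. In untreated early stage 5 embryos g27732 took 53.4% of the counts of the pair in female 1 (exact 95% interval 50.0 to 56.7) and 71.6% in female 2 (68.7 to 74.3). In RPKM, g27733 was almost equal in the 2 females (41.8 and 41.7), while g27732 was at 26.6 in female 1 and 58.4 in female 2. With 1 library for each female this is a difference between 2 libraries. Whether the 2 models are parts of 1 gene or separate copies was not tested. How reads were assigned between them cannot be told from a table of counts.

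**Figure D2:**
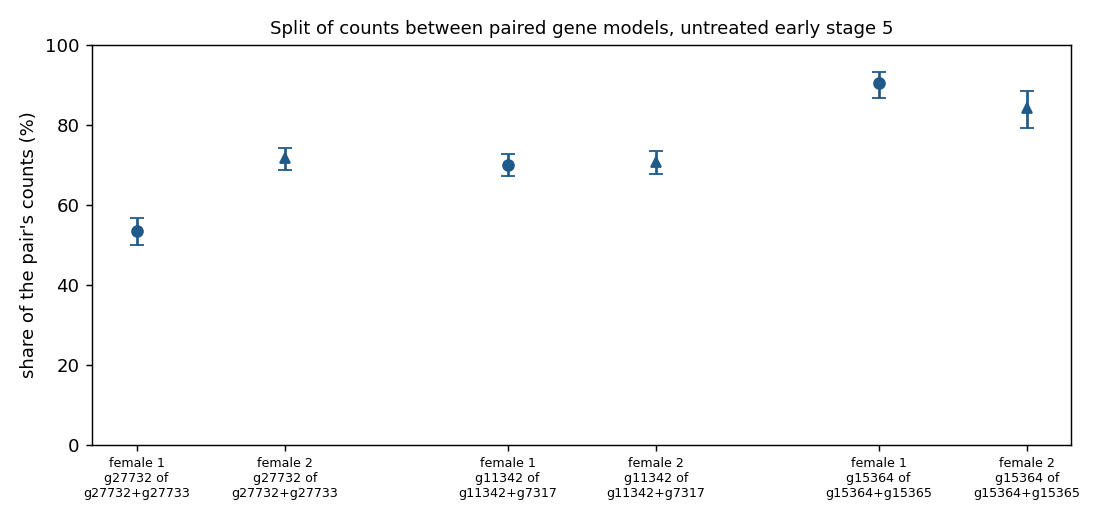
Share of the counts of 2 gene models taken by the first of them, in percent, in the untreated early stage 5 library of each female, with exact 95% counting intervals. The shares of g11342 in the UreG pair are 70.0% and 70.6%, whereas those of g27732 in the acetoacetyl-CoA synthetase-like pair are 53.4% and 71.6%.

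Acetoacetyl-CoA synthetase is by far the largest family of the 4, with 27 gene models of 21 NCBI genes, of which 18 had no library over 10 counts. At stage 2 the family was represented by other models than g27732 and g27733. The highest count was that of g3109, with 822 and 462 in untreated and 657 and 607 in pRNAi libraries of stage 2. It had 11 and 10 against 23 and 15 at stage 3, and 2 and 0 against 2 and 3 at early stage 5. Likewise g21872 had 138 and 75 counts in untreated and 110 and 64 in pRNAi libraries of stage 2. Summed over the family, the untreated RPKM was 88.1 and 60.6 at stage 2, 4.60 and 7.16 at stage 3, and 70.3 and 102 at early stage 5. The share of g27732 and g27733 in this sum was 0.193% and 0% at stage 2 and 97.4% and 98.4% at early stage 5. The sum treats the 2 models as separate transcripts. If they are parts of 1 transcript, its level enters the early stage 5 sum more than once. In pRNAi embryos the sum was 71.6 and 62.1 at stage 2, within the range of the untreated libraries, and 1.03 and 1.43 at early stage 5. The models next to the pair on the scaffold, g27731 and g27734, carry the same description, and g27731 had 6 and 11 counts in untreated and 1 and 1 in pRNAi libraries of early stage 5 (adjusted p = 0.273). The model g27734 had at most 1 count in a library, as did g27730, which lies on the far side of g27731.

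**Figure D3:**
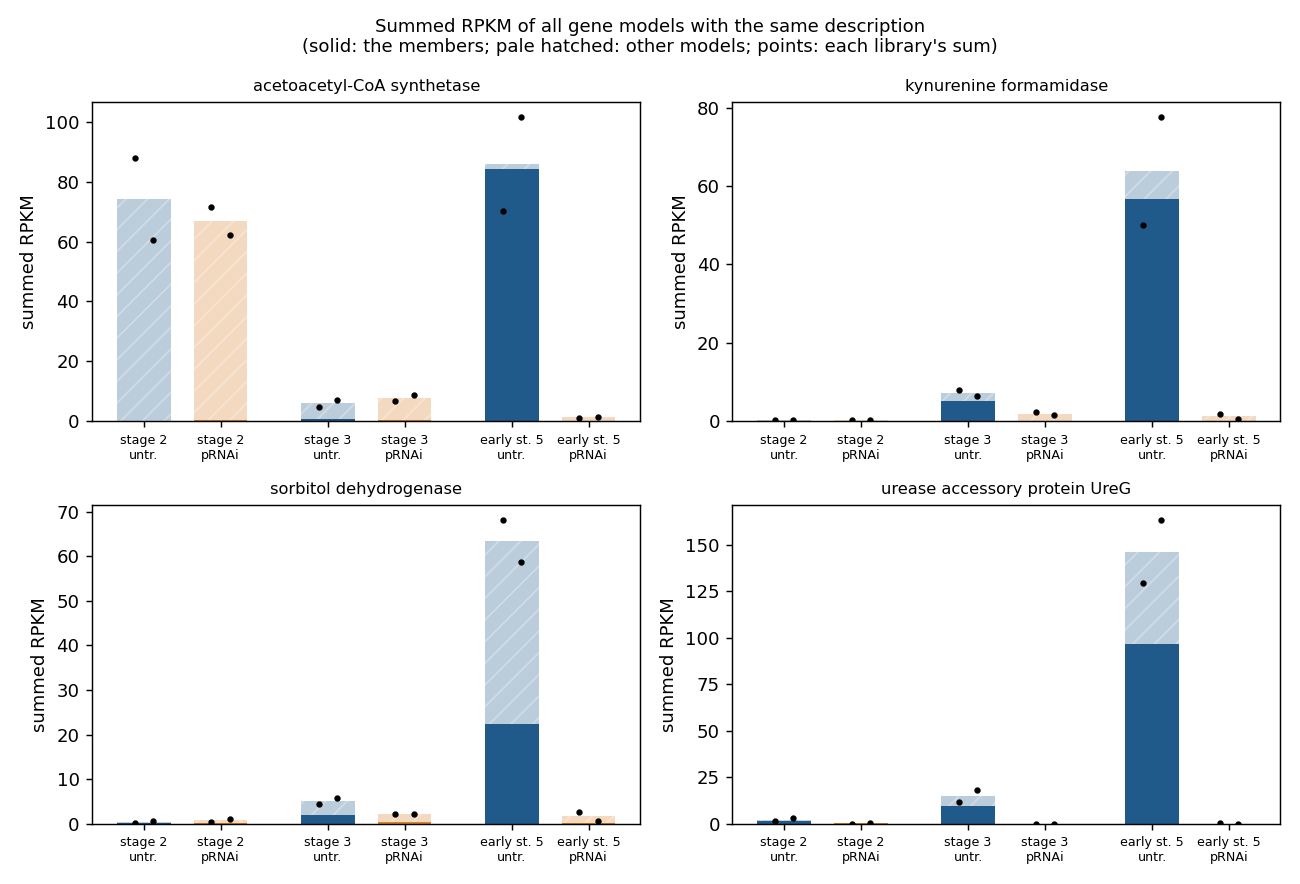
Summed RPKM of all gene models that carry the same description, for each of the 4 enzymes, by stage and treatment; bars are means of 2 libraries, solid for the 5 described models and pale for the others, and points are the single libraries. For acetoacetyl-CoA synthetase the stage 2 level comes almost wholly from other models and the untreated level of early stage 5 from g27732 and g27733 (97.4% and 98.4%), which are nearly absent from the pRNAi libraries.

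Per length, the highest of the 5 models in untreated embryos of early stage 5 was g11342, at 96.7 ± 16.4 RPKM (SD, n = 2). It was followed by g25447 at 56.7 ± 17.9, g27732 at 42.5 ± 22.4, g27733 at 41.8 ± 0.0787 and g15364 at 22.4 ± 1.49. The libraries of g27732 (26.6 and 58.4) overlapped with those of g25447 (44.0 and 69.4) and enclosed those of g27733 (41.8 and 41.7), so g27732 does not differ from either beyond its spread, and g25447 and g27733 differed in mean by less than the SD of g25447. Both libraries of g11342 were higher, and both libraries of g15364 lower, than those of the other 4.

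The models differed in when their untreated level became higher, and these changes between stages are given with no test. Kynurenine formamidase-like g25447 and sorbitol dehydrogenase-like g15364 were already 130 times (95% counting interval 22.8 to 5192) and 19.1 times (6.12 to 96.1) as high at stage 3 as at stage 2. The corresponding value of g11342 was 7.59 (4.90 to 12.2). From stage 3 to early stage 5 these 3 models were 12.2 to 13.7 times as high, with intervals that overlap: 12.2 (10.2 to 14.6) for g11342, 12.8 (10.5 to 15.9) for g25447 and 13.7 (10.1 to 19.1) for g15364. The acetoacetyl-CoA synthetase-like models were later. They were at or near the floor up to stage 3, and at early stage 5 g27732 was 154 times (80.6 to 337) and g27733 114 times (55.2 to 286) as high as at stage 3. Of 14498 gene models compared, 1 had a larger log2 change than g27732 over this interval and 3 had a larger one than g27733, against 109 to 117 for the other 3 models. The untreated libraries behind these ranks also entered the choice of the 5 models, which by itself favours high ranks. For g27732 and g27733 the ranks further rest on summed stage 3 counts of 9 and 7. From stage 3 to early stage 5 *fuchi* itself was 1.27 times as high, and from stage 2 to stage 3 it was 4.87 times as high.

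All 5 models passed the filter on low counts at early stage 5 (at least 1 CPM in at least 1 library), 3 passed at stage 3 and 1 at stage 2. The models that failed at stage 3 were g27732 and g27733. For stage 3 and early stage 5 no test is given for the 5 models. At stage 2 none of the 5 was called, with or without the block. The 1 tested, g11342, had an unadjusted p under 0.05, but it passed the filter only through the untreated libraries. Over all models the quasi-likelihood test called 0% at stage 2 in either direction, where 413 had an unadjusted p under 0.05. With the block 0.497% were called lower and 0.273% higher. The likelihood ratio test did not call g11342 at stage 2 either, and DESeq2 gave it no adjusted p.

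The targeted gene *fuchi* had 524 and 298 counts in untreated and 124 and 47 in pRNAi libraries of stage 2, 1660 and 1418 against 556 and 344 at stage 3, and 1815 and 1632 against 860 and 491 at early stage 5. It was lower in both females at every stage, and it passed the test at stage 3 (adjusted p = 0.00552) and early stage 5 (adjusted p = 0.00705), and at stage 2 only once the female was blocked (adjusted p = 6.5e-13). At early stage 5 the pRNAi libraries thus still held counts of *fuchi* far over the floor, while those of the 5 enzymes were 0 to 2. The counts of *catA*, a gene used as a check, did not pass the test at any stage (adjusted p between 0.828 and 0.997).

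Because RNA came from whole embryos, fewer cells that express a gene and less of its RNA per cell cannot be told apart. Of 2 genes taken here as endoderm markers, Pt-GATA4 and Pt-GATA5, transcripts were lower in the same libraries as those of the 5 enzymes at early stage 5. The study itself lists both as changed by *fuchi* knockdown at this stage, and proposes that *fuchi* acts on Pt-GATA5. Their fall was thus known beforehand and is no separate measure of how much endoderm was left. Pt-GATA4 had 243 and 252 counts in untreated and 2 and 0 in pRNAi libraries of early stage 5 (adjusted p = 5.4e-05), and Pt-GATA5 had 147 and 138 against 0 and 9 (adjusted p = 0.00933). Their summed level was 59.3 and 73.6 CPM in untreated and 0.286 and 2.02 CPM in pRNAi libraries at early stage 5, 16.6 and 15.3 against 3.39 and 5.90 at stage 3, and 0.302 and 0.522 against 0.645 and 0.125 at stage 2. The 9 other marker genes were taken here as those of rim, cumulus, mesoderm and germ disc, among them Pt-fkh, which also marks endoderm. None of the 9 passed the test at early stage 5. Pt-Delta (log2 fold change -1.37, adjusted p = 0.0104) and Pt-fkh (-1.29, adjusted p = 0.0120) were just over the threshold, and Pt-GATA5 just under it. The others had an adjusted p of 0.0948 or higher. With the female blocked Pt-fkh, Pt-otd and Pt-Delta were lower and Pt-twi higher. The sum of the 9, which mixes log2 fold changes of both signs, was 1051 and 1034 CPM in untreated and 813 and 582 CPM in pRNAi libraries. The part that such cell populations have in the values of the enzymes was not tested.

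Other genes of the same pathways were counted from 4 lists of 122 gene models chosen by their NCBI description, of which 17 had no count in any library. The lists were drawn up with earlier results of these data known, so no conclusion about the pathways is drawn from the shares that follow. At early stage 5, 54 of the 122 models could be tested. Of these, 10 were lower in *fuchi* pRNAi embryos (18.5%, against 2.96% of all models), 0 were higher (0.162% of all models) and 44 did not pass. With the female as a block 18 were lower, against 6.51% of all models. One of the 10 is g7317, which belongs to the UreG gene already described and is not independent of g11342. Without it 9 of 53 were lower. Also among the 10 are kynurenine formamidase g21623 and the sorbitol dehydrogenases g22055 and g374, which share the description of a chosen model. The 10 are thus not all other steps of the pathways. Several, such as g21623 and g17730, passed the filter on low counts only through untreated libraries, which favours a lower call. Without the first *fuchi* pRNAi library the count was 7, and g20946, g21623 and g23731 no longer passed.

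**Figure D4:**
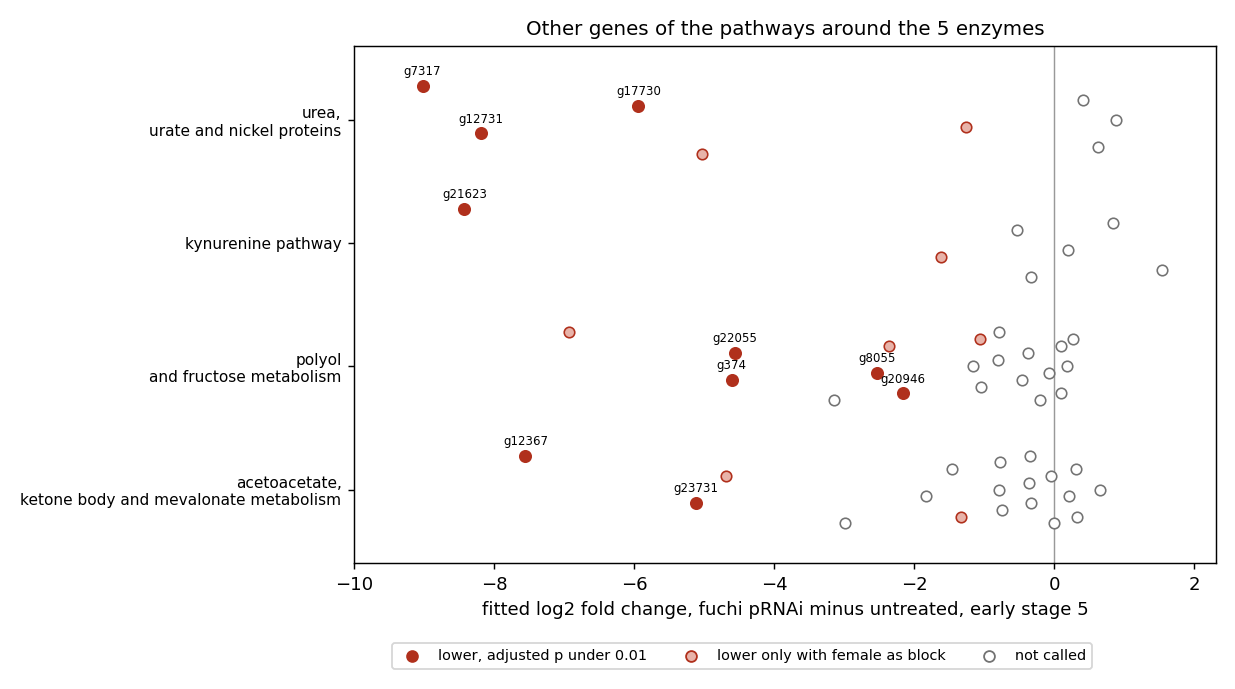
Fitted log2 fold change (*fuchi* pRNAi minus untreated) at early stage 5 of the 54 tested gene models of the 4 pathway lists, 1 point for each model; red points passed the test, pale red points passed only with the female as a block, and open points did not pass. The 10 models that passed all lie to the left of 0, and the vertical scatter within a list has no meaning.

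In the list of urea, urate and nickel proteins 3 of 8 tested models were lower and none was higher. Over the 8, log2 fold changes had a median of -3.15, beside -0.01 over all models. One of the 3 is g7317, of the UreG gene, and without it 2 of 7 were lower and the median was -1.27. Urease subunit alpha g17730, the catalytic subunit that UreG serves, had 120 and 74 counts in untreated and 3 and 0 in pRNAi libraries of early stage 5 (log2 fold change -5.94 ± 0.66 SE, adjusted p = 0.000872). The most abundant model of the list was arginase g12731, the enzyme that releases urea from arginine, with 868 and 934 counts against 2 and 4 (-8.19 ± 0.46 SE, adjusted p = 2.1e-05). Arginase had 50 and 54 against 4 and 7 counts at stage 3, with an adjusted p of 0.0524, or of 9.8e-08 once the female was a block. The block also called g14982 (urease subunit alpha-like, 21 and 51 against 0 and 2) and g7338 (urease accessory protein D-like, 121 and 112 against 55 and 42) at early stage 5. Argininosuccinate synthase-like g5516 and argininosuccinate lyase-like g12117, which act before arginase in the urea cycle of mammals, did not pass, with log2 fold changes of 0.62 ± 0.23 and 0.40 ± 0.32 (SE).

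Of the kynurenine pathway 1 of 7 tested models was lower, the formamidase g21623. The median was -0.34. The enzyme that makes the substrate of the formamidase, tryptophan 2,3-dioxygenase, is represented by g7925, which had 2 and 1 counts in untreated and 9 and 1 in pRNAi libraries of early stage 5. Kynurenine 3-monooxygenase-like g14749, which uses kynurenine, had 11 and 9 against 21 and 15 (log2 fold change 0.83 ± 0.58 SE), and kynurenine--oxoglutarate transaminase 3 (g26432) had 75 and 83 against 98 and 37 (-0.34 ± 0.35 SE). None of these 3 passed the test. With the block g16352, a decarboxylase of a later branch, was also called (39 and 47 against 11 and 16).

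In polyol and fructose metabolism 4 of 20 tested models were lower, with a median of -0.93. In addition to the sorbitol dehydrogenases g22055 and g374, these were aldose reductase-like g8055, of the enzyme family that makes sorbitol from glucose, and L-xylulose reductase-like g20946. Aldose reductase-like g8055 had 618 and 610 counts in untreated and 146 and 75 in pRNAi libraries (log2 fold change -2.54 ± 0.26 SE, adjusted p = 0.000561). L-xylulose reductase-like g20946 had 412 and 433 against 111 and 80 (-2.17 ± 0.27 SE, adjusted p = 0.00167). These falls were smaller than those of the sorbitol dehydrogenases, and more than a trace of the transcript was left in both pRNAi libraries. Hexokinase-2 g1820, which acts at the entry of glycolysis, had 965 and 590 against 1282 and 559 (0.18 ± 0.27 SE) and did not pass. The block called g24621, g8056 (aldose reductase, 79 and 60 against 20 and 8) and g16495 (fructose-1,6-bisphosphatase 1, 716 and 413 against 354 and 195) in addition.

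In acetoacetate, ketone body and mevalonate metabolism 2 of 19 tested models were lower, with a median of -0.74, and neither is an enzyme that uses acetoacetate. The model g12367 is described as 4-hydroxyphenylpyruvate dioxygenase, an enzyme of the breakdown of tyrosine, which yields acetoacetate. It had 124 and 105 counts in untreated and 1 and 0 in pRNAi libraries, a level 233 times as high in untreated (95% counting interval 41.4 to 9244, adjusted p = 0.000121). The model g23731, a related dioxygenase-like protein, had 102 and 48 against 2 and 2 (log2 fold change -5.12 ± 0.59 SE, adjusted p = 0.00106). Later steps of tyrosine breakdown did not pass: homogentisate 1,2-dioxygenase g26375 had a log2 fold change of -0.36 ± 0.26 and maleylacetoacetate isomerase-like g5074 one of -0.78 ± 0.26 (SE). The ketone body enzyme succinyl-CoA:3-ketoacid coenzyme A transferase (g17444) was at -0.06 ± 0.26, and 3-hydroxy-3-methylglutaryl-coenzyme A reductase (g10040), which controls sterol synthesis in mammals, at 0.30 ± 0.24 (SE). With the block fumarylacetoacetase-like g18254 (239 and 199 against 108 and 68) and tyrosine aminotransferase-like g1083 (17 and 14 against 1 and 0) were called as well. Holding models with 0 counts in both pRNAi libraries at their bound left the medians of all 4 lists as given.

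At the earlier stages few of the pathway genes passed the test, and few of all models were called lower. At stage 3, 0 of 56 tested models passed (0.27% of all models were called lower). An unadjusted p under 0.05 was found for 10 of the 56, beside 1239 of all 13324 tested. With the block 3 were lower (2% of all models): g7317, arginase g12731 and g23731, which had 84 and 46 counts in untreated and 2 and 9 in pRNAi libraries. The likelihood ratio test and DESeq2 also called these 3 models. At stage 2, 0 of 49 passed, and the likelihood ratio test and DESeq2 called none. An unadjusted p under 0.05 was found for 2 of the 49, beside 413 of all 12079 tested. With the block 1 was higher (0.273% of all models), 6-phosphofructokinase-like g18871, at 107 and 104 counts in untreated and 182 and 296 in pRNAi libraries (log2 fold change 1.14 with the block, adjusted p = 0.00962). Whether effects differ between stages was not tested.

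Across the 12 libraries Pearson's r of log2 CPM lay between 0.869 and 0.982 for the 10 pairs of the 5 models. The models were chosen for low counts after knockdown in these same libraries, which by itself makes such values high. The highest value was that of g27732 and g27733, and the lowest that of g11342 and g27732. Among 10468 other described models, the 3 most like this chosen pattern, by mean r to the 5, were g21231 (fatty acid-binding protein-like, 0.963), g27654 (estradiol 17-beta-dehydrogenase 2, 0.963) and g17108 (slit homolog 1 protein-like, 0.960). The corresponding value of *fuchi* was 0.655. The most abundant of the 3, g21231, had 866 and 911 counts in untreated and 1 and 0 in pRNAi libraries of early stage 5, and 45 and 30 against 1 and 0 at stage 3. These correlations describe 12 libraries that share 2 females and 3 stages, and for all 5 models the 2 untreated libraries of early stage 5 are the highest.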

How the data were processed

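Whole-embryo RNA-seq libraries of 6 groups of 2 were analysed. Raw counts per AUGUSTUS gene model of Ptep_1.0 were deposited by the authors (HTSeq 0.6.1p1, per the labels); the aligner and strand setting were not given in the sources used here, and antisense or near-identical models may share reads. RPKM values were made and deposited by the authors. The labels name no source of the 2 libraries of a group other than the female, so p-values measure the spread between 2 females.

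Fits were made stage by stage, on 4 libraries each, in R 4.3.3 with edgeR 4.0.16 (TMM, at least 1 CPM in at least 1 library, quasi-likelihood F test). Benjamini-Hochberg adjusted p-values were read at 0.01, as in the study. The SE was obtained as the absolute log2 fold change over the root of F. CPM levels and changes between stages use TMM over the 12 libraries. Ratios between treatments with counts in both groups carry exact 95% intervals, as do those of the 5 models between stages, and shares exact (Clopper-Pearson) ones. Deviations of same-female libraries correlated at 0.568 (stage 2), 0.454 (stage 3) and 0.413 (early stage 5), so the female was a block in an alternative. The 2 libraries of a group were not duplicates (mean chi-square per model 28.0 to 44.1). The fit was tested on simulated data. The changed models of the simulation were well over the floor, and it held no effect of the female. It thus does not cover models near the floor or the pairing of libraries.

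The members, pathway lists and tests were chosen with earlier results of these data known. Named were the members, models of the same NCBI gene or description, called list genes, scaffold neighbours, *fuchi*, *catA* and the 3 described models most correlated with the members (models described only as uncharacterized left out). Other list genes were named as uncalled examples after their values were seen. Alternatives were DESeq2 1.42.0, edgeR's likelihood ratio test, RLE size factors, no filter, the block, a fit of all libraries, limma 3.58.1 on log2(RPKM + 1) and log2(RPKM + 0.1), each library left out, and 3 added after seeing the data (models of 1 NCBI gene summed; 6-phosphofructokinase models left out; g7317 left out).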

Additional observations from a re-analysis of the deposited data

Results flagged for a closer look

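No group had enough libraries to look for a library that stands apart. Of the members and of the pathway genes called with or without the female as a block, 4 pathway genes were higher in the *fuchi* pRNAi library of both females at one stage and lower in both at another; the difference between stages was not tested, and no member did so. The dioxygenase-like g23731 had a log2 fold change of 1.06 at stage 2 (15 and 11 against 22 and 31 counts), and of -3.67 at stage 3 and -5.12 at early stage 5. Sorbitol dehydrogenase g374 had 1.03 at stage 2, where it had 0 and 2 against 1 and 3 counts, and -4.61 at early stage 5. The decarboxylase g16352 had 0.36 at stage 2 and 0.53 at stage 3, and -1.62 at early stage 5. The 6-phosphofructokinase-like g18871 had 1.20 at stage 2 and 1.26 at stage 3, and -0.47 at early stage 5.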

How the results depend on the processing

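No member was called at stage 2 (0) under any alternative run with 2 libraries per group (DESeq2 gave no adjusted p). The log2 fold change of g11342 there was negative in all runs, also with 1 library left out, from -3.54 to -1.08. Since g11342 passed the filter only through untreated libraries and was chosen for low pRNAi counts, this sign was partly fixed beforehand. No conclusion is drawn from it. With the female as a block, which the shared females justify, 1 pathway gene was called at stage 2 in place of 0, 3 in place of 0 at stage 3, and 18 in place of 10 at early stage 5; the block changed no other call of a member at the stage tested. At stage 3 the likelihood ratio test, DESeq2 and the fit with no filter each called 3, and the fit of all 12 libraries called 1 (arginase). At early stage 5 the likelihood ratio test called 16 and the fit with no filter 17. Shares of all models were computed only for the main test and the block, so these counts have no share of all models beside them. The cause was not tested. Leaving out 1 library gave 7 to 11 calls at early stage 5, 0 at stage 3 and 0 at stage 2, where a lone library was assumed to vary like the others. The fit of all 12 libraries called 7 at early stage 5. Summing models of 1 NCBI gene with the members' genes left out gave 9. The differences of the 5 members at early stage 5, and of g11342, g25447 and g15364 at stage 3, were also refitted. The alternatives computed for them were DESeq2, RLE size factors, the block, each library left out and both RPKM scales. All gave a negative sign, but these contrasts chose the models, so that sign was fixed beforehand and is no support. Fitted differences of models at 0 or 1 count depend on the prior count or pseudocount. The deposited RPKM scaling moved the median of all models at stage 3 to 0.11 (log2), against 0.01 with TMM.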
